A study of Oryza sativa with 9 samples.

Results

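The loci described here are 39 rice (Oryza sativa) genes for which the authors' deposited tables of differential expression list at least 2 transcript models that are not the same. A transcript model is 1 annotated transcript of a locus, and its number, which stands after the point in the identifiers (LOC_Os01g40670.1), is used below as its name. Together the 3 tables hold 832 models of 727 loci, and 649 of these loci have a single listed model. Of the 78 loci with 2 or more, 21 were set aside because of a place on chromosome 5 or a description that names ribosomal proteins, translation, tRNA, ubiquitin, the proteasome, heat shock, chaperones, photosystems or light harvesting. A further 18 have models that are identical in coding length and in every deposited mean, which left the 39 loci with 86 models.

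RNA came from spikelets, the floral units of rice, of BC14F2 plants, that is, of a backcross line that was then selfed. F5 is a locus at which hybrids between rice subspecies can be male sterile, and the plants carried its i and j alleles as the heterozygote f5-i/j, the homozygote f5-i/i or the homozygote f5-j/j. Each genotype had 3 samples, 9 in all, from which polyA RNA was sequenced, and the labels do not tell if these were separate plants. The values are the authors' mean of each genotype, with a lowest value of 0.01, called the minimum below. Their unit is not stated, so means of different models are compared only as deposited. With no values of single samples there is no error or read depth, no difference could be set against the spread between replicates, and no test was run. The tables hold only models to which the authors gave a probability of 0.8 or more of being differentially expressed, so the differences were selected for size and other models of a locus may be unlisted. Of 7 floral organ MADS-box loci and 1 tapetum locus sought as tissue markers, 1 and 1 were listed, and an unlisted marker may be unchanged or not detected. Both listed markers were low in f5-j/j plants, but each is a single listed model, which need not follow the level of its locus. The tapetum marker LOC_Os11g37280.1 had authors' means of 34.05 in f5-i/j plants, 33.8 in f5-i/i plants and 0.413 in f5-j/j plants, and the MADS-box marker LOC_Os01g66030.2 had 31.3 in f5-i/i plants and 5.98 in f5-j/j plants, with no mean given for f5-i/j. The part of such differences between cell types in the results against f5-j/j below was not tested.

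Many plant genes with introns can give several mature RNAs by alternative splicing or by different starts and ends. Such models can encode proteins of different length, or proteins that differ by a few residues where neighbouring splice sites are used. In short-read RNA-seq most reads of a locus fit several of its models, so the division of reads among models is an estimate made by the counting program, and the level of a single model is less certain than that of its locus. The authors' division of reads was not tested here. Since RNA came from whole spikelets, fewer cells that use a model and less of it per cell cannot be told apart.

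Models of the same locus went opposite ways in some loci, in shares near those over all loci with differing models. In the authors' deposited table that sets f5-i/j against f5-i/i, 17 of the loci had 2 or more listed models. All models were higher in the heterozygote in 7 of them, all were lower in 2, and in 8 they went both ways. Over all 27 loci of that table whose listed models differ, from any chromosome and of any description, 33.3% had all models higher, 22.2% all lower and 44.4% both ways, and 53.3% of all listed transcripts were higher in f5-i/j plants. Where the heterozygote is set against f5-j/j, 12 such loci were in the authors' deposited table, with all models higher in 2, all lower in 4 and both ways in 6. There the shares over all 20 loci with differing models were 15%, 45% and 40%, and 44.6% of all listed transcripts were higher in the heterozygote. Between the homozygotes, f5-i/i over f5-j/j, the authors' deposited table also had 12 such loci, with all models higher in 1, all lower in 6 and both ways in 5. The shares over all 18 loci with differing models were 11.1%, 44.4% and 44.4%, and 45.1% of all listed transcripts were higher in f5-i/i plants. These backgrounds contain the loci described here. The shares going both ways here, 47.1%, 50% and 41.7% in the same order, were near them and do not set these loci apart. Without means at the minimum, 3, 2 and 2 of the loci described here went both ways. Among the loci with differing models that were set aside, 4 of 10, 2 of 8 and 3 of 6 went both ways in the 3 comparisons, and among all loci with 2 or more listed models, identical ones included, 30.8%, 29.6% and 26.7% did. In all, 15 loci had models both ways in at least 1 comparison and 4 of them in a pair of comparisons. The comparisons share the means of each genotype, so a locus that recurs is not a second observation.

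**Figure D1:**
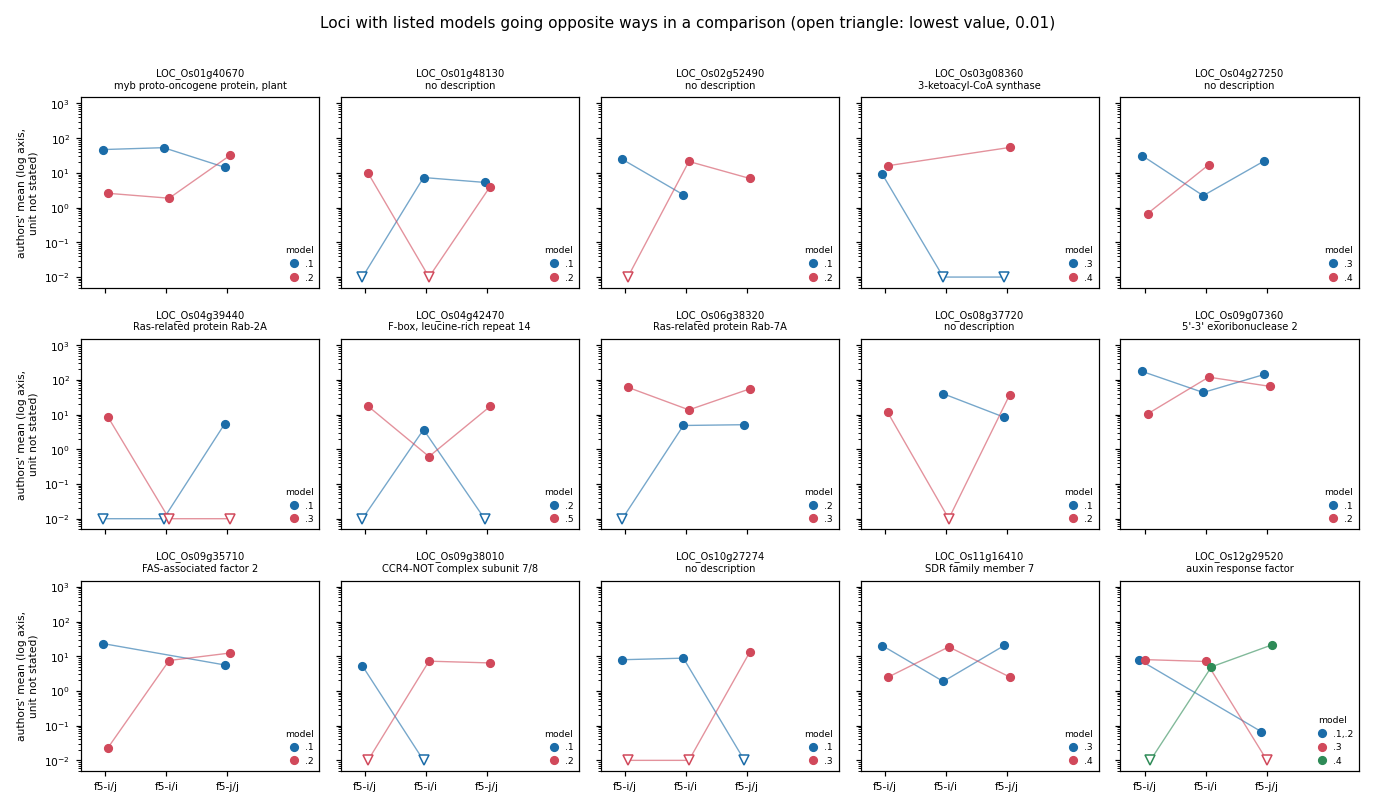
The authors' mean (log axis, unit not stated) of each listed model in f5-i/j, f5-i/i and f5-j/j for the 15 loci whose models went opposite ways in a comparison. Each colour is 1 model, or several with identical values, an open triangle is the minimum of 0.01, and a missing point is a mean that no table gives. Crossing lines mark loci whose highest model is not the same in all genotypes.

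Where models went opposite ways, the listed sums of most loci were less than 2-fold apart, as opposite signs favour. When the means of the listed models of a locus were added within each genotype, the 8 loci going both ways when f5-i/j is set against f5-i/i had sums that were apart by a median of 1.37-fold, from 1.04-fold to 4.07-fold, and 6 of the 8 were under 2-fold. Of their 16 models, 7 had a mean at the minimum, and the other 9 differed between the genotypes by a median of 10.8-fold in the authors' deposited table. With f5-i/j set against f5-j/j, the median over the 6 sums was 1.43-fold and the highest 2.14-fold. Of the 14 models 7 had a mean at the minimum, and the other 7 differed by a median of 12.4-fold by the authors' means. Between the homozygotes the median over the 5 sums was 1.18-fold and the highest 3.97-fold, while the 6 of 10 models above the minimum differed by a median of 9.13-fold by the authors' means. In loci whose models all went the same way, a sum has to lie between the ratios of its models, all of which the authors had listed for their size, so those sums give no contrast. Opposite signs bring a sum closer to no difference by arithmetic, unlisted models of the locus are not in the sum, and a sum is an amount of RNA only if the deposited unit can be added across models.

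**Figure D2:**
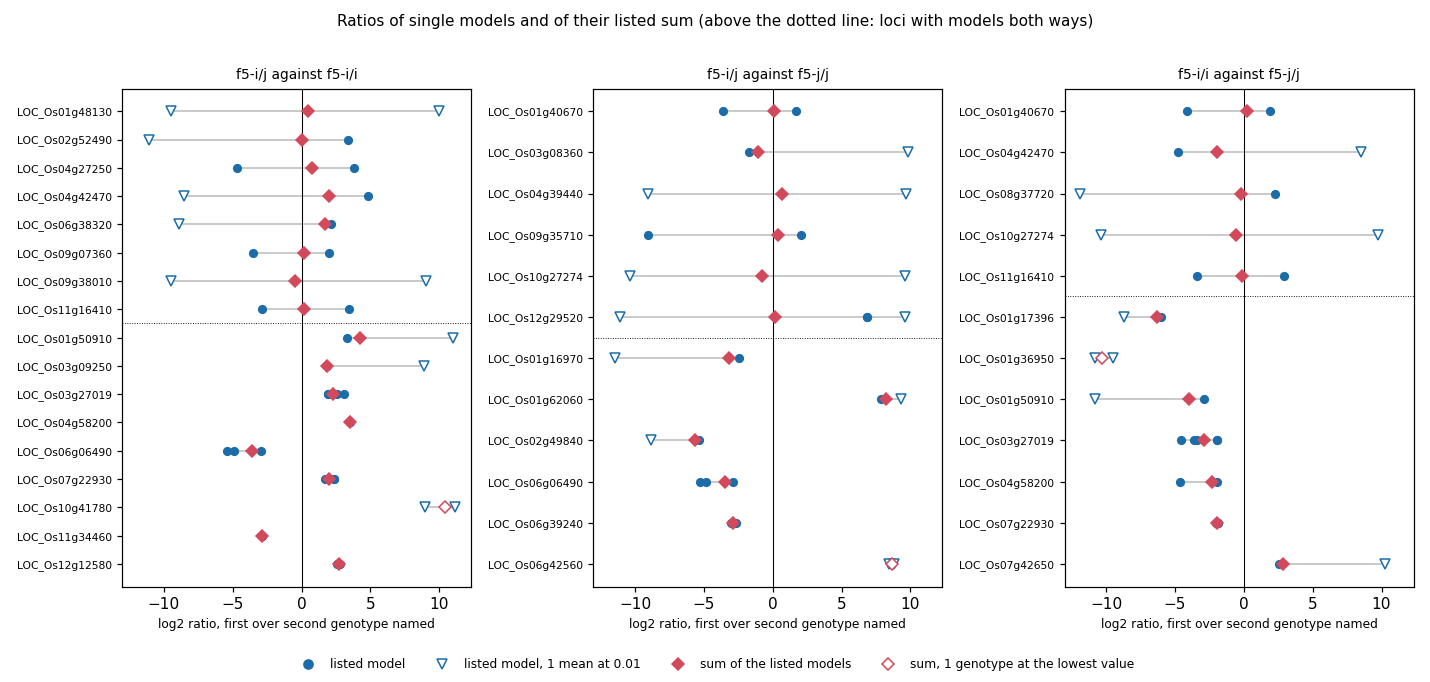
Log2 ratios of the authors' means, first over second genotype named, for every locus with 2 or more listed models in a comparison. Circles are single models, open triangles models with 1 mean at 0.01, red diamonds the ratio of the summed models, and open diamonds sums with 1 genotype at the minimum. Above the dotted line, where models went both ways, 6 of 8, 5 of 6 and 4 of 5 diamonds lie within 2-fold of no difference. The line splits loci by the signs of the ratios that are summed, so where the diamonds lie on each side of it follows in part from the split.

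Transcription factors were among the loci whose models exchanged places. LOC_Os01g40670, on chromosome 1 by its identifier, is described as a plant MYB protein, a family of DNA-binding regulators. Its model 1, with a coding length of 903 bases, had authors' means of 47.1 in f5-i/j plants, 53.4 in f5-i/i plants and 14.5 in f5-j/j plants. Model 2, shorter by 9 bases, had 2.59, 1.87 and 32.2 by the authors' mean in the same genotypes. Model 1 therefore held 94.8% of the listed sum in f5-i/j plants, 96.6% in f5-i/i plants and 31.1% in f5-j/j plants. The sums themselves, 49.6, 55.3 and 46.7, differed by 1.18-fold at most, whereas model 2 differed by 12.4-fold from f5-j/j in the heterozygote and by 17.2-fold in f5-i/i.

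LOC_Os12g29520, described as an auxin response factor, the class of proteins that binds the promoters of auxin-responsive genes, had 4 listed models in a single comparison. Against f5-j/j, models 1, 2 and 3 were higher in f5-i/j plants, with authors' means of 7.84 against 0.0667 for models 1 and 2, which are identical, and of 7.99 against the minimum for model 3. Model 4 was at the minimum in f5-i/j plants, against 21.5 in f5-j/j plants, by the authors' mean. In f5-i/i plants the authors' means of models 3 and 4 were 7.05 and 4.94, so both stood above the minimum there, while each of the other genotypes had 1 of the pair at the minimum. The 4 models differ by 3 bases of coding length, and their sums over the authors' means, 23.7 in f5-i/j plants and 21.6 in f5-j/j plants, differed by 1.10-fold. With the identical models 1 and 2 counted once the sums were 15.8 and 21.5, which is 1.36-fold. Models 3 and 4 alone, which have means in all genotypes, summed to 8 in f5-i/j plants, 12 in f5-i/i plants and 21.5 in f5-j/j plants, a span of 2.69-fold. Since models 3 and 4 have the same coding length of 2523 bases, length does not tell them apart.

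The MADS-box locus LOC_Os02g49840, of a family known for floral organ identity and flowering time, behaved otherwise. Model 2 had authors' means of 0.413 in f5-i/j plants, 39.5 in f5-i/i plants and 16.6 in f5-j/j plants, and model 4 was at the minimum in f5-i/j and f5-i/i plants, against 4.64 in f5-j/j plants. Both models were listed lower in the heterozygote than in f5-j/j plants, and the listed sum was 50.2-fold lower. A mean of 3 values that are not negative limits each of them to 3 times the mean, so no f5-i/j sample can have had more than 1.24 of model 2, while at least 1 sample of f5-i/i reached or passed the mean of 39.5.

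A locus described as a putative transcription factor, LOC_Os06g39240, had authors' means of 14.6 in f5-i/j plants, 175 in f5-i/i plants and 122 in f5-j/j plants for model 1. The authors' mean of model 2, with a coding length of 279 bases against 468 for model 1, was 12.9 in f5-i/j plants and 84.1 in f5-j/j plants. Both were lower in the heterozygote and by similar factors, 8.35-fold and 6.5-fold against f5-j/j. Of the locus described as WRKY transcription factor 1, LOC_Os02g08440, different models were listed in different comparisons. The authors' mean of model 2 was 12 in f5-i/j plants and 0.733 in f5-i/i plants, and that of model 4 was 0.8 in f5-i/i plants and 14 in f5-j/j plants, so both stood under 1 in f5-i/i plants.

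A pair of loci described as RNA-degrading enzymes, for which no gene list was fixed, were also among those going both ways. A 5'-3' exoribonuclease degrades RNA from its 5' end, and LOC_Os09g07360 carries that description. Model 1 had authors' means of 175 in f5-i/j plants, 43.3 in f5-i/i plants and 143 in f5-j/j plants, and model 2, shorter by 15 bases, had 10.5, 120 and 65.2. Model 1 held 94.3% of the listed sum in f5-i/j plants, 26.6% in f5-i/i plants and 68.7% in f5-j/j plants. The sums were 185, 163 and 208 by the authors' means and differed by 1.28-fold at most. None of these means was near the minimum. LOC_Os09g38010 is described as subunit 7/8 of the CCR4-NOT complex, which shortens the poly(A) tails of mRNAs. Its model 1 had authors' means of 5.22 in f5-i/j plants and the minimum in f5-i/i plants, and model 2, longer by 6 bases, had the minimum in f5-i/j plants, 7.20 in f5-i/i plants and 6.41 in f5-j/j plants. In the f5-i/j and f5-i/i plants each model was thus at the minimum where the other was not, at levels of a few units.

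Membrane traffic was represented by a pair of Rab proteins, small GTPases that direct vesicles to their target membranes. For LOC_Os04g39440, described as Rab-2A, which acts between the endoplasmic reticulum and the Golgi, model 1 was at the minimum in f5-i/j plants and in f5-i/i plants and averaged 5.39 in f5-j/j plants by the authors' mean. Model 3, shorter by 66 bases, had 8.41 in f5-i/j plants and the minimum in f5-i/i and f5-j/j plants. In f5-i/i plants neither listed model was above the minimum. LOC_Os06g38320, described as Rab-7A of late endosomes and vacuoles, had a strong and a weak model. The authors' mean of model 3 was 61.0 in f5-i/j plants, 13.7 in f5-i/i plants and 55.1 in f5-j/j plants. That of model 2 was at the minimum in f5-i/j plants, 4.85 in f5-i/i plants and 5.11 in f5-j/j plants. Model 3 led in all genotypes, and the sum in f5-i/j plants was 3.29-fold higher than in f5-i/i plants, so this is 1 of the loci going both ways whose sum differed by over 2-fold.

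LOC_Os01g16970 is described as a substrate of protein kinase C by the name that in mammals belongs to the beta subunit of glucosidase II, a glycoprotein-processing enzyme of the endoplasmic reticulum. The authors' mean of model 2 was at the minimum in f5-i/j plants, 8.68 in f5-i/i plants and 28.9 in f5-j/j plants. Model 3 had 8.04, 3.53 and 45.1 by the authors' mean. Both were lower in the heterozygote than in f5-j/j plants, the sum by 9.19-fold. Against f5-i/i the models parted, since model 3 was 2.28-fold higher in f5-i/j plants by the authors' means and was not listed there.

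Loci of protein turnover and folding included both kinds, with models that parted and models that went together. LOC_Os04g42470, described as F-box and leucine-rich repeat protein 14, had authors' means of 17.5 in f5-i/j plants, 0.617 in f5-i/i plants and 17.1 in f5-j/j plants for model 5. Model 2, longer by 132 bases, was at the minimum in f5-i/j and f5-j/j plants and at 3.70 in f5-i/i plants. The heterozygote and f5-j/j were within 1.02-fold for model 5, and f5-i/i stood apart in both models. Model 2 was low beside model 5, and the listed sum was still 4.07-fold higher in f5-i/j plants than in f5-i/i plants.

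FAS-associated factor 2 is a protein that in human cells helps extract proteins from the endoplasmic reticulum membrane. Its locus LOC_Os09g35710 had authors' means of 23.2 in f5-i/j plants and 5.61 in f5-j/j plants for model 1. Model 2, shorter by 63 bases, had 0.0233 in f5-i/j plants, 7.52 in f5-i/i plants and 12.4 in f5-j/j plants. No f5-i/j sample can have had more than 0.0700 of model 2. The sums of 23.3 in f5-i/j plants and 18.0 in f5-j/j plants differed by 1.29-fold.

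Stress-induced-phosphoprotein 1 joins the chaperones HSP70 and HSP90, and its locus LOC_Os06g06490 had 3 models, all lower in f5-i/j plants than in both homozygotes. Model 1, with a coding length of 1032 bases, had authors' means of 12.3 in f5-i/j plants, 97.6 in f5-i/i plants and 89.6 in f5-j/j plants. Model 2, of 864 bases, had 2.29, 68.1 and 64.8 by the authors' mean. Model 3, of 630 bases, had 0.393, 17.0 and 15.5. The shorter the model, the larger was the fold against f5-i/i, at 7.92, 29.8 and 43.3, and the same order held against f5-j/j. The share of model 1 in the sum was 82.1% in f5-i/j plants, 53.4% in f5-i/i plants and 52.7% in f5-j/j plants, while the homozygotes differed by 1.10-fold at most in any of the 3 models.

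LOC_Os11g34460, described as flavin-binding kelch repeat F-box protein 1, a blue-light receptor of photoperiodic flowering in Arabidopsis, had 3 listed models, each higher in f5-i/i plants than in the other genotype for which its mean is given. The identical models 2 and 3 had authors' means of 2.38 in f5-i/j plants and 17.3 in f5-i/i plants. Model 1, longer by 363 bases, had 18.3 in f5-i/i plants and 2.69 in f5-j/j plants. LOC_Os01g36950, which the files describe as kelch-like, was at the minimum in f5-i/i plants in both models. The authors' mean of model 3 was 3.62 in f5-i/j plants and 18.3 in f5-j/j plants, and that of model 1 was 7.49 in f5-j/j plants.

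Among the enzymes of sugar, starch and lipid metabolism were loci whose models differed together between genotypes. Granule-bound starch synthase makes amylose, and its locus LOC_Os07g22930 had 3 models, all higher in f5-i/j plants than in f5-i/i plants. Models 2 and 3, identical in values, had authors' means of 137 in f5-i/j plants, 26.2 in f5-i/i plants and 95.8 in f5-j/j plants, and model 4, shorter by 336 bases, had the highest mean of the locus in each genotype. The sum was 539 in f5-i/j plants, 135 in f5-i/i plants and 526 in f5-j/j plants, which put f5-i/i 3.99-fold below the heterozygote and 3.89-fold below f5-j/j, or 3.69-fold and 3.95-fold with the identical models counted once. Model 4 held 49.1% of it in f5-i/j plants, 61.2% in f5-i/i plants and 63.6% in f5-j/j plants, so the shares differed by less than the total. Myo-inositol-1-phosphate synthase catalyses the first step of inositol synthesis. At LOC_Os03g09250 its model 1 had authors' means of 188 in f5-i/j plants, 52.9 in f5-i/i plants and 189 in f5-j/j plants, and model 2 had 4.78 in f5-i/j plants and the minimum in f5-i/i plants. Both models were thus higher in the heterozygote than in f5-i/i, and nearly all of the listed sum was model 1.

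3-Ketoacyl-CoA synthase elongates fatty acids for waxes and other lipids, and LOC_Os03g08360 went both ways. Model 3 had authors' means of 9.20 in f5-i/j plants and the minimum in both homozygotes, whereas model 4, shorter by 48 bases, had 16.1 in f5-i/j plants and 54.2 in f5-j/j plants. The sum was 2.14-fold lower in f5-i/j plants than in f5-j/j plants. Endo-1,4-beta-xylanase cleaves the xylan of cell walls. At LOC_Os03g14010 the authors' mean of model 1 was 2.37 in f5-i/j plants and 18.4 in f5-j/j plants, and that of model 2, shorter by 15 bases, was 46.0 in f5-i/j plants and 12.8 in f5-i/i plants. The glycolytic enzyme enolase, LOC_Os10g08550, had authors' means of 54.6 in f5-i/j plants, 270 in f5-i/i plants and 300 in f5-j/j plants for model 5, and 4.16 in f5-i/i plants with the minimum in f5-j/j plants for model 3. Its main model was therefore lower in the heterozygote and alike in the homozygotes, to within 1.11-fold.

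LOC_Os11g16410 gave a nearly symmetrical exchange. It is described as member 7 of the short-chain dehydrogenase/reductase family. Model 3 had authors' means of 20.2 in f5-i/j plants, 1.87 in f5-i/i plants and 20.4 in f5-j/j plants, and model 4, shorter by 153 bases, had 2.47, 18.6 and 2.52. Both f5-i/j values lay within 1.02-fold of those of f5-j/j. Model 3 held 89.1% of the sum in f5-i/j plants, 9.17% in f5-i/i plants and 89.0% in f5-j/j plants, while the sums of 22.7, 20.4 and 22.9 differed by 1.12-fold at most.

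Different models were listed in different comparisons for chalcone isomerase, which closes the ring of flavonoids. At LOC_Os12g02370 the authors' mean of model 2 was 65.6 in f5-i/j plants and 14.7 in f5-j/j plants, and that of model 4, shorter by 108 bases, was 10.1 in f5-i/j plants and 41.1 in f5-i/i plants. Tryptophan synthase beta chain, LOC_Os06g42560, had authors' means of 3.53 and 4.45 in f5-i/j plants for models 2 and 3, both at the minimum in f5-j/j plants. Cysteine synthase A makes cysteine from O-acetylserine. At LOC_Os03g53650 the authors' mean of model 1 was 4.63 in f5-i/j plants and at the minimum in f5-i/i plants, where model 4, shorter by 231 bases, had 16.0 against 0.247 in f5-j/j plants.

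A pair of loci described as enzymes of chlorophyll synthesis, for which no gene list was fixed, were lower in f5-i/i plants than in the heterozygote. Of all listed transcripts of that comparison, 53.3% were lower in f5-i/i plants. LOC_Os10g41780 was named after its values were seen, so the pair does not stand for such enzymes. Protochlorophyllide reductase carries out the light-dependent reduction step of chlorophyll synthesis. At LOC_Os04g58200 the authors' mean of model 3, shorter than model 1 by 306 bases, was 20.6 in f5-i/j plants, 1.82 in f5-i/i plants and 44.6 in f5-j/j plants. Models 1 and 3 were higher in f5-i/j plants than in f5-i/i plants by 11.4-fold each, so their shares hardly differed, with 5.5% for model 3 in f5-i/j plants and 5.52% in f5-i/i plants, against 27.0% in f5-j/j plants. Against f5-j/j the models parted, as model 1 was 2.94-fold higher in f5-i/j plants by the authors' means and model 3 was 2.16-fold lower and not listed. Chlorophyllide a oxygenase converts chlorophyll a precursors to chlorophyll b. The models of LOC_Os10g41780 have the same coding length of 1626 bases but not the same means. Model 1 had authors' means of 23.1 in f5-i/j plants, the minimum in f5-i/i plants and 20.1 in f5-j/j plants, and model 2 had 4.93 in f5-i/j plants and the minimum in both homozygotes. The f5-i/j and f5-j/j plants were thus alike in model 1 and apart in model 2.

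Targeting protein for Xklp2 organises spindle microtubules in animal cells. LOC_Os09g13650 carries that description, with authors' means of 113 in f5-i/j plants and 13.3 in f5-j/j plants for model 1. Model 2, shorter by 84 bases, had 8.39 in f5-i/j plants and 33.6 in f5-i/i plants. The 2 differences run opposite ways but lie in different comparisons, so no locus sum could be formed. Across the set, 7 loci had no comparison that listed 2 of their models.

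**Figure D3:**
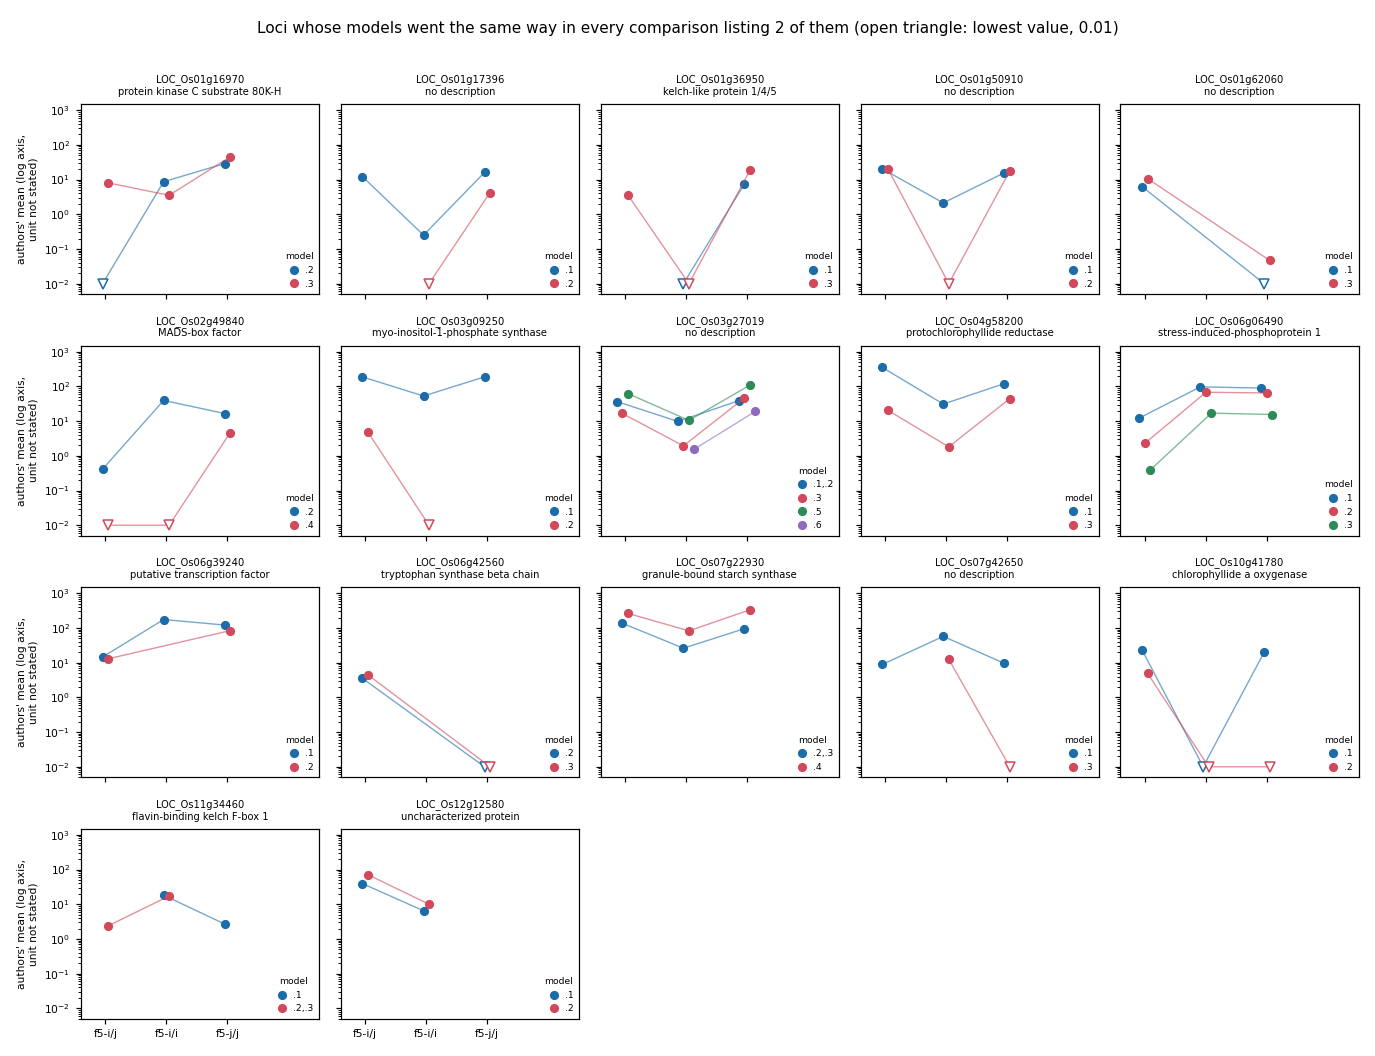
The authors' mean (log axis, unit not stated) of each listed model in f5-i/j, f5-i/i and f5-j/j for the 17 loci whose models went the same way in every comparison that listed 2 of them. Each colour is 1 model, or several with identical values, open triangles mark the minimum of 0.01, and a missing point is a mean that no table gives. The loci were chosen by the shared direction of their models, so lines that run together follow in part from the choice. Examples are the 3 models of LOC_Os06g06490, lowest in f5-i/j plants, and the models of LOC_Os07g22930, lowest in f5-i/i plants. Lines also part or cross, as in LOC_Os01g16970. There model 2 is at the minimum in f5-i/j plants and 8.68 in f5-i/i plants, and model 3 is at 8.04 and 3.53.

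Of the 39 loci, 11 have no KEGG description in the files and are given by identifier alone. LOC_Os03g27019 had the most listed models, 5, with all of them lower in f5-i/i plants than in f5-j/j plants and the 4 with a mean in f5-i/j plants higher there than in f5-i/i plants. Its highest model, model 5, had authors' means of 62.5 in f5-i/j plants, 10.5 in f5-i/i plants and 109 in f5-j/j plants. In f5-i/i plants the 5 models were lower than in f5-j/j plants by factors from 3.98 for models 1 and 2, which are identical, up to 24.0 for model 3. LOC_Os12g12580, whose description reads uncharacterized protein, had authors' means of 39.4 against 6.5 for model 1 and of 71.3 against 10.04 for model 2 in f5-i/j plants against f5-i/i plants. The folds of the 2 models were alike, at 6.06 and 7.10.

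The other loci without a description again included exchanges. At LOC_Os10g27274 model 1 had authors' means of 7.93 in f5-i/j plants, 8.79 in f5-i/i plants and the minimum in f5-j/j plants. Model 3, shorter by 9 bases, was at the minimum in f5-i/j and f5-i/i plants and at 13.4 in f5-j/j plants. LOC_Os01g48130 had the minimum in f5-i/j plants, 7.37 in f5-i/i plants and 5.33 in f5-j/j plants for model 1, by the authors' mean. Its model 2 had 10.0, the minimum and 4 in the same order, so f5-j/j was the genotype with both above the minimum. LOC_Os08g37720 differed by 3 bases between models, and the authors' mean of model 1 was 39.7 in f5-i/i plants and 8.35 in f5-j/j plants, while that of model 2 was 11.5 in f5-i/j plants, the minimum in f5-i/i plants and 37.8 in f5-j/j plants.

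LOC_Os02g52490 had authors' means of 24.6 in f5-i/j plants and 2.34 in f5-i/i plants for model 1. Model 2, longer by 6 bases, had the minimum in f5-i/j plants, 21.4 in f5-i/i plants and 6.91 in f5-j/j plants. The sums of 24.6 in f5-i/j plants and 23.7 in f5-i/i plants were within 1.04-fold. LOC_Os04g27250 exchanged model 3, at 31.5 in f5-i/j plants, 2.21 in f5-i/i plants and 22.1 in f5-j/j plants by the authors' mean, for model 4, at 0.677 in f5-i/j plants and 17.1 in f5-i/i plants. In LOC_Os02g55590 the authors' mean of model 3 was 0.840 in f5-i/j plants, 16.4 in f5-i/i plants and 11.2 in f5-j/j plants, and model 2 had 4.83 in f5-i/i plants and 27.7 in f5-j/j plants. In the remaining undescribed loci the models went together.

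LOC_Os01g50910 was low in f5-i/i plants in both models. The authors' mean of model 1 was 20.5 in f5-i/j plants, 2.12 in f5-i/i plants and 15.7 in f5-j/j plants, and that of model 2, shorter by 138 bases, was 20.8, the minimum and 17.9. LOC_Os01g17396 was likewise low there, with 12.2 in f5-i/j plants, 0.25 in f5-i/i plants and 16.1 in f5-j/j plants for model 1, by the authors' mean, and the minimum in f5-i/i plants against 4.24 in f5-j/j plants for model 2. LOC_Os07g42650 was high in f5-i/i plants instead. Its model 1 had authors' means of 8.90 in f5-i/j plants, 57.3 in f5-i/i plants and 9.58 in f5-j/j plants, and model 3 had 12.5 in f5-i/i plants and the minimum in f5-j/j plants. Both models of LOC_Os01g62060 were higher in f5-i/j plants, with authors' means of 6.25 against the minimum in f5-j/j plants for model 1 and 10.7 against 0.0467 for model 3.

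The highest model of a locus was not always the same in all genotypes, which is read here from the deposited means whatever their unit. Among the 34 loci with both means for at least 2 models in some comparison, 16 had another leading model in the first genotype than in the second in at least 1 comparison. All but LOC_Os01g16970, LOC_Os01g50910 and LOC_Os02g55590 were loci already counted as going both ways. LOC_Os01g50910 enters on a near tie, with 20.8 for model 2 and 20.5 for model 1 in f5-i/j plants. The same count over all loci with several listed models is not given, so this one does not set these loci apart. For 17 loci at least 2 models had a mean in all 3 genotypes. In 6 of these the same model led throughout, in 5 the heterozygote had the leader of f5-j/j, in 3 that of f5-i/i and in 1, LOC_Os01g48130, a leader of its own. In the other 2, the Rab-2A and chlorophyllide a oxygenase loci, f5-i/i had no model above the minimum. A model enters the count over 17 loci only if it was listed at least in a pair of comparisons. The count over 34 loci needs only both means of 1 comparison. Both counts thus follow the authors' listing.

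Coding length differed between the listed models in 38 of the 39 loci. The difference ranged up to 402 bases. Where models went opposite ways it tended to be small, with a median of 15 bases over the 15 loci with models both ways in a comparison and 135 bases over the other 24. Of these 24, 7 had no comparison that listed 2 of their models and could not be classed by direction. The median without them is not given. At most 15 bases separated the models in 9 of the 15 and 4 of the 24, a limit chosen after the values were seen. No test of this difference was run, and a locus with more listed models has more chances of a wide span. The model that was higher in f5-i/j plants was the longer in 4 of the 8 loci that went both ways against f5-i/i and in 4 of 6 against f5-j/j. In LOC_Os12g29520, a further locus of the 6, the higher models 1 and 2 were longer than the lower model 4 and the higher model 3 was as long. The model higher in f5-i/i plants was the longer in 4 of 5 against f5-j/j, by the authors' deposited table.

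**Figure D4:**
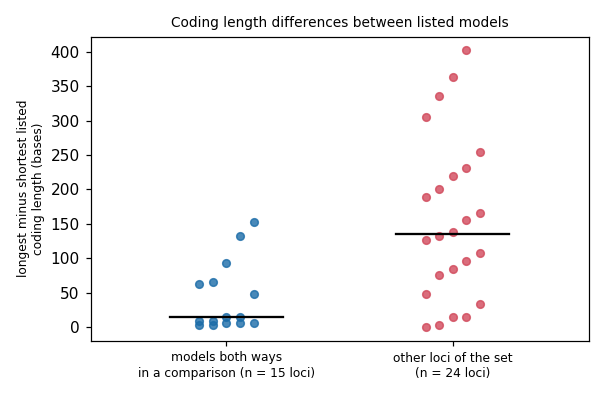
Difference in bases between the longest and the shortest coding length among the listed models of each locus, for the 15 loci with models both ways in a comparison and for the other 24. Points are loci and lines are medians, at 15 and 135 bases. The 24 include 7 loci with no comparison that listed 2 of their models, which could not be classed by direction.

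Models at the minimum made up a smaller share of this set than of the tables. Of its 56 models listed when f5-i/j is set against f5-i/i, 32.1% stood at the minimum in 1 of the genotypes, where the share over all listed transcripts of the authors' deposited table was 47.5%. With f5-i/j set against f5-j/j it was 41.5% of 41 models, against 58% of all listed transcripts, and between the homozygotes 34.9% of 43, against 50.8%. All listed transcripts include the set. The set also had higher levels. The higher of the compared means had a median of 20.6, 15.5 and 20.1 in the set. Over all listed transcripts it was 16.3, 10.1 and 14.2. The part of level in the shares at the minimum was not tested. Above the minimum the authors' deposited ratios had a median fold of 7.71, 7.50 and 7.08 in the set and 7.12, 6.53 and 7.37 over all listed transcripts of the same comparisons, so the set did not stand out in size. By direction, 33 of 56, 16 of 41 and 11 of 43 models were higher in the first genotype of each comparison. That is 58.9%, 39.0% and 25.6%, beside 53.3%, 44.6% and 45.1% of all listed transcripts in the authors' deposited tables. Models of the same locus, identical ones included, are each counted here and are not separate observations. Of the 32 lower models of the last comparison, LOC_Os03g27019 gave 5 and LOC_Os07g22930 gave 3.

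Gene lists found by words in the first KEGG description of each model held few of these loci. The transcription factor and chromatin list held 5, of which 2 had all listed models lower in f5-i/j plants than in f5-j/j plants and 1 went both ways in that comparison. Of the models of these 5 loci 1 was higher and 6 were lower there, beside 7 and 20 of all listed transcripts on the list. The CCR4-NOT subunit was matched to it by the name of its complex. The sugar, starch and central carbon list held 3 loci, 1 of them with all models higher in f5-i/j plants than in f5-i/i plants and lower in f5-i/i plants than in f5-j/j plants. Of their models 4 were higher and 1 lower in f5-i/j plants than in f5-i/i plants, beside 27 and 13 of all listed transcripts on that list. The transport and membrane traffic list and the amino acid, nucleotide and cofactor list held 2 each. The lists of protein kinases and phosphatases, lipid and acyl metabolism, and hormone and circadian signalling held 1 each, the kinase list only through the words protein kinase C in the description of LOC_Os01g16970. No locus fell in the lists of RNA splicing and processing, oxidation and detoxification, or proteases and cell death.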

How the data were processed

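PolyA RNA of 9 spikelet samples was sequenced by the authors, per the labels' protocols. The submitters' processing notes name the tools BWA, Bowtie and RSEM, with no role and no version. No genome build, normalization or depth is given in the sources used here. As deposited by the authors, means are signal values in an unstated unit, 1 per genotype, and 3 times each mean was a multiple of 0.01. Each deposited log2 ratio was recomputed from the deposited means. The authors' probability is a score of at least 0.8 in every row and no p-value. The deposited length is a coding length, as 100% of values are multiples of 3. Mean columns were tied to genotypes by the table titles and the column names that the tables share, and 0 columns of single samples were left unused.

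No model was fitted and no test was run. Rows were left out by chromosome and description, loci with at least 2 remaining models that differ in length or in a mean were kept, and directions, sums and leading models were counted per locus with pandas 2.3.3 in Python 3.11.15. The directions and sums were tested on simulated data that held no value at the minimum and no missing mean. The count of leading models was not tested in this way. No fold against 0.01 is given for a model, though log2 ratios against it are drawn and enter the medians over all models under the alternative settings. Members and lists were chosen with earlier results of these data known. A locus was named if its models went both ways, if it had 3 or more models, by the highest means and largest ratios of each comparison, by the gene lists or by its length difference. LOC_Os01g36950, LOC_Os01g50910 and LOC_Os10g41780 were named outside that rule, after their values were seen. The reference table matched 0 of the locus identifiers, so no coordinates or sequences are given.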

Additional observations from a re-analysis of the deposited data

How the results depend on the processing

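Of 144 values recomputed for 27 results, 102 stayed within 1.5 times the value reported and 42 did not, and the cause of a difference was not tested where it is not the loss of models from the count. Values for the 3 comparisons stand in the order f5-i/j over f5-i/i, f5-i/j over f5-j/j and f5-i/i over f5-j/j. Without means at the minimum, 18 loci and 42 models were left, 9, 4 and 5 loci had 2 or more listed models, all models were higher in 4, 0 and 0, lower in 2 of the second and 3 of the last comparison, and both ways in 3, 2 and 2. The higher model was then the longer in 2 of the loci going both ways in the second comparison and 1 in the last, and the median absolute log2 ratio of single models over all multi-model loci was 3.64 in the second comparison and 2.45 in the last, where means at the minimum, which set no measured size, made it 7.84 and 3.86. A pseudocount of 1 made the value of the second comparison 3.05. At a probability of 0.9 or more, 4 loci and 8 models were left, with 1, 2 and 2 loci of several models, all higher in 0, 0 and 0, lower in 0, 0 and 1, and both ways in 1, 2 and 1. With a higher mean of 5 or more, all models were higher in 1 locus of the second comparison, where the median absolute log2 ratio of sums was 0.93 against 2. With identical models counted once, 1 locus was lower in all models in the first comparison, and the median fold of sums of the loci going both ways was 1.37, 1.46 and 1.18, an alternative added after seeing the data. Requiring every higher model to be longer than every lower one, likewise added, gave 4 loci in each comparison, where average lengths gave 4, 5 and 4. With all chromosomes and descriptions kept, an alternative chosen after seeing the data, 27 and 20 loci had several models in the first and second comparison, all models were lower in 6 and 9 of them, and in the last comparison all were higher in 2 and both ways in 8. Counting only models above the minimum in both genotypes, 7 loci in place of 16 had another leading model. Fewer loci than the 34 could then be counted, and their number is not given, so the share cannot be compared.

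No paired analysis was possible because the tables hold genotype means and no columns of samples, and leaving out single samples was not possible for the same reason. Read depth is unknown, so it cannot be told which low means rest on few reads. The division of reads among models of nearly equal coding length was not tested.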
